A study of Mus musculus with 4 samples.

Results

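Unscratched monolayers of MLE-12 cells labelled Lingo1 knockout were compared with unscratched wild-type MLE-12 cells, gene by gene. Genes that reached 1 CPM (counts per fixed library total, scaled by TMM factors) in either of these libraries were taken, which gave 12245 of the 46078 genes in the deposited table, 11541 of them protein-coding. MLE-12 is a mouse lung epithelial line immortalised with a viral large T antigen under the surfactant protein C promoter. Neither group was treated, and 1 library stood for each genotype. The other 2 libraries of the series came from the same genotypes 24 hours after a scratch wound. They share no library with the unscratched pair and are given beside it as a second reading of the genotypes. The column letter for unscratched cells was read by exclusion from the letter for scratched cells. How the knockout was made, and whether its cells were 1 clone, is not given in the sources used here. With 1 library a side there was no test of any difference. Brackets after a ratio hold a 95% interval from the gene's 2 counts (exact, Clopper-Pearson), which covers counting error only and leaves out variation between cultures and clones.

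LINGO1 is a membrane protein with leucine-rich repeats. It is best known from neurons, where it joins the Nogo receptor and restrains axon growth and myelination. Alveolar type 2 cells, which MLE-12 cells are used to model, make and recycle surfactant, and they divide to replace the flat type 1 cells of the air sac. Epithelial cells also lay down basement membrane and answer growth signals within minutes through immediate early genes.

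The 4 libraries held from 26903429 to 48333801 counts, with TMM factors from 0.991 to 1.007. Lingo1 was counted at 46.4 CPM in wild-type and 41.2 CPM in knockout-labelled unscratched cells, a ratio of 0.889 (0.821 to 0.963), so the transcript level does not check the label. Of 10 alveolar type 2 markers, 6 reached 1 CPM, and Sftpa1, Sftpd and Slc34a2 had no count in either unscratched library. The 5 type 1 markers were all present. Of 5 epithelial markers 4 reached 1 CPM. In wild-type and knockout-labelled unscratched cells the epithelial cadherin Cdh1 stood at 787 and 712 CPM and Epcam at 5.42 and 5.47 CPM. Krt18 had only 4 and 8 counts. Of the markers of other cell types, 7 of 20 for fibroblasts, 5 of 18 for endothelium, 3 of 22 for leukocytes, 6 of 15 for mast cells and 8 of 25 for neurons reached 1 CPM in either library.

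Ribosomal and small structural RNAs, which mRNA selection should leave behind, differed between the libraries, and in opposite directions in the pairs. So did the mRNAs of the mitochondrial genome. Nuclear ribosomal RNA took 0.603% of counts in wild-type and 0.193% in knockout-labelled unscratched cells, against 0.121% and 0.700% after the scratch. Small structural RNAs stood at 0.577 times the wild-type share without a scratch and at 2.14 times after it. The mRNAs of the mitochondrial genome took 0.962% and 0.679% of counts in the unscratched libraries and 0.685% and 0.761% in the scratched ones. The ribosomal RNA gene CT010467.1 had the largest loss of all members, 5725 to 1836 CPM, followed by Lars2, a mitochondrial leucyl-tRNA synthetase gene, at 2558 and 1420 CPM. Both were higher in the knockout-labelled library of the scratched pair, where Lars2 stood at 1250 and 2842 CPM. As counted here, the RNA classes also held microRNA loci, mitochondrial rRNA and tRNA, and replication-dependent histone genes. Of the 46 members of all these classes, 17 were lower by 2-fold in the unscratched knockout-labelled cells and none higher, against 0.833% and 1.31% of all members. The 17 were 6 small structural RNAs, 6 histone genes, 3 nuclear ribosomal RNAs, 1 microRNA locus and 1 mitochondrial tRNA. The part of the RNA classes in the differences of other genes was not tested.

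**Figure D1:**
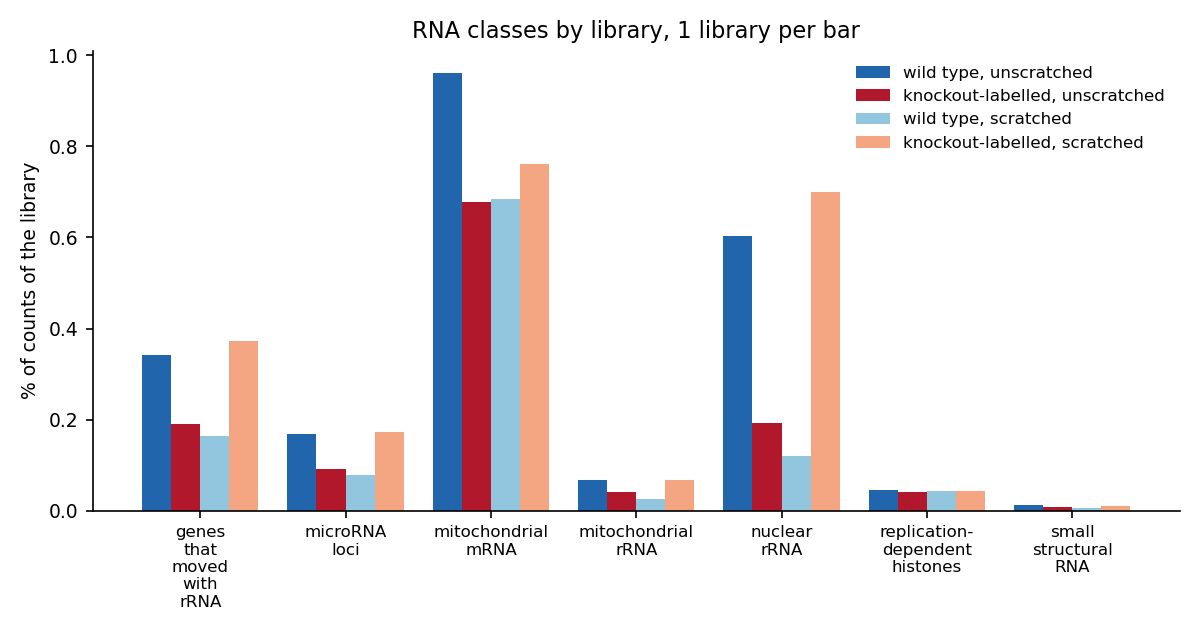
Share of all counts (percent) taken by 7 RNA classes, with 1 bar for each of the 4 libraries. The class at the left holds Lars2, Gm26917 and Gm15564. These were grouped because they moved with ribosomal RNA in these same libraries, so the pattern of that class is not a separate result. Nuclear ribosomal RNA was at 0.603% in wild-type and 0.193% in knockout-labelled unscratched cells, and at 0.121% and 0.700% after the scratch.

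Most genes were at nearly the same level in both unscratched libraries, and the large differences were more often gains than losses. The log2 difference was under 0.25 in size for 8688 members (71.0%). A gene was called when it differed by at least 2-fold (log2 difference with a prior count of 2) and its interval excluded 1. This rule called 263 members (2.15%): 161 (1.31%) were higher and 102 (0.833%) lower in the knockout-labelled library. Among protein-coding genes 152 were called higher and 73 lower. At least 5-fold separated 22 of the higher protein-coding genes and 3 of the lower ones. With the minimum lowered to 25% (the higher library at least 25% above the lower one, the minimum behind the counts of gene lists given from here on), 2017 members (16.5%) were called, 1096 (8.95%) higher and 921 (7.52%) lower.

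Outside the RNA classes above, nearly all of the better-measured differences were also seen in the scratched pair. Leaving out these classes, a choice made after the values were seen, 58 genes were called higher with at least 5 CPM in the higher library. All 58 were also called higher at the 25% minimum in the scratched pair, and 47 by 2-fold. Of 20 such lower genes, 18 were lower there at the 25% minimum and 10 by 2-fold, while Gnas and Rpl23a went the other way. With the RNA classes kept, 27 lower genes had at least 5 CPM, and those of the RNA classes were all called higher by 2-fold in the scratched pair. Over all levels, 108 of the 161 higher genes (67.1%, and 62.4% of the 173 called in the scratched pair) were called in both pairs. Only 24 of the 102 lower genes (23.5%, and 63.2% of 38) were shared, and 20 were called in the opposite direction, 15 of which belonged to the RNA classes. In the scratched pair 1.72% of the same genes were called at 2-fold, 1.41% higher and 0.31% lower, and 12.4% at the 25% minimum, 7.13% higher and 5.3% lower.

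**Figure D2:**
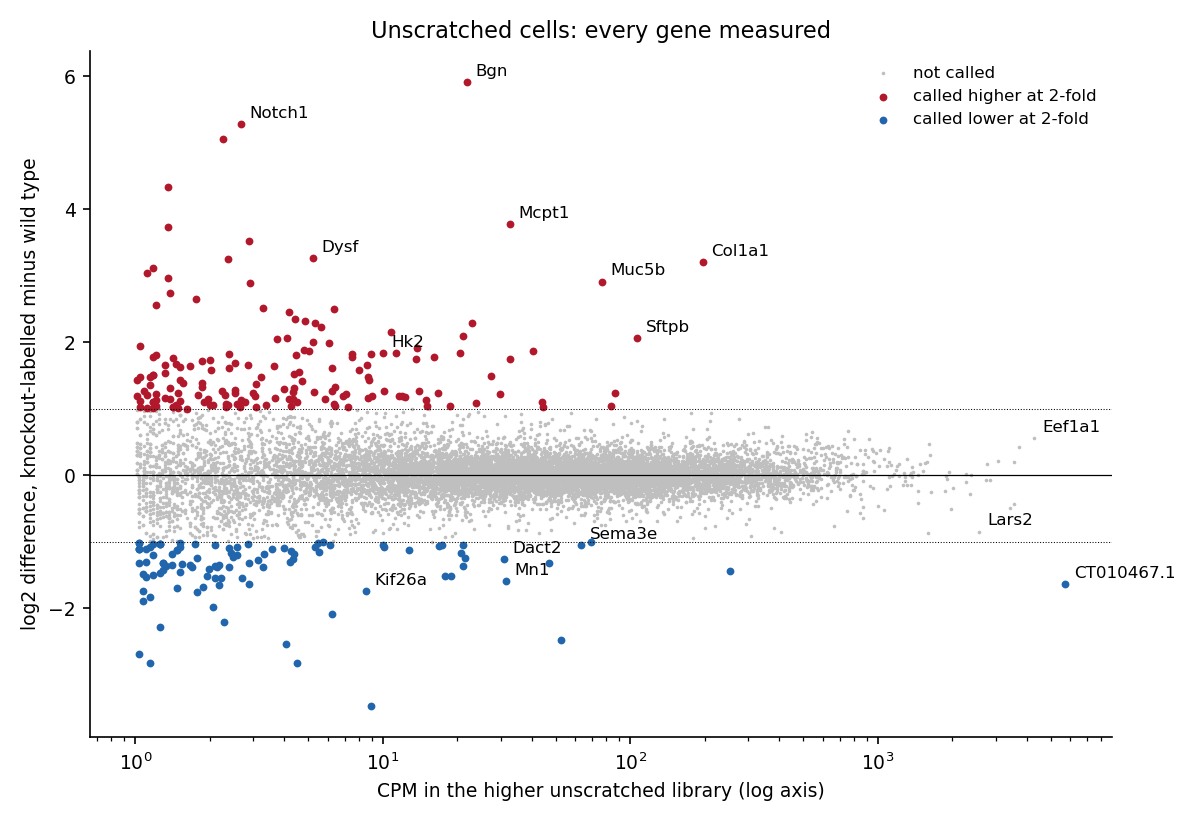
Each point is 1 of 12245 genes; the horizontal axis is CPM in the higher of the unscratched libraries (log axis), and the vertical axis is the log2 difference, knockout-labelled minus wild type, with dotted lines at 2-fold. The 161 genes called higher reach farther from 0 than the 102 called lower, and the abundant point far below 0 is the ribosomal RNA gene CT010467.1.

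Matrix genes gave the largest gain of the comparison and 3 of the 15 largest. In each pair of values from here on, wild type comes first and the knockout-labelled cells second, without a scratch unless stated. Biglycan (Bgn, ENSMUSG00000031375, chrX:73483602-73495933), a small proteoglycan that binds collagen, had 8 counts in wild-type and 650 in knockout-labelled unscratched cells. These were 0.295 and 21.97 CPM, a ratio of 74.4 (37.5 to 173), and both scratched libraries gave nearly the same levels, 0.287 and 19.4 CPM. Col1a1 (chr11:94936224-94953042), the first chain of type I collagen, was at 21.3 and 197 CPM, a ratio of 9.26 (8.50 to 10.1). Its partner chain Col1a2 had 0 and 1 counts and the fibrillar collagen gene Col3a1 1 and 6 counts, so these other fibrillar chains had at most 6 counts. Of 7 fibroblast markers measured, Col1a1 among them, 4 were higher and 2 lower (median 0.80), and Pdgfra was at 1.29 and 2.30 CPM. The summed level of the full list of 20 fibroblast markers was 2934 and 2960 CPM, and 6 had no count. Most of that sum was decorin (Dcn), at 2846 and 2710 CPM. The part of such cells in the matrix genes was not tested. Emilin1, an elastic fibre glycoprotein, was at 1.48 and 6.05 CPM, a ratio of 4.10 (2.90 to 5.93).

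Of 19 collagen chains measured, 10 were higher at the 25% minimum and 2 lower, and 5 were higher by 2-fold. The median log2 difference of the list was 0.34 in both pairs, beside 0.01 over all members, and 0.21 without a scratch when 5 CPM was required. Col8a1, a short-chain collagen, was at 36.9 and 86.8 CPM, Col4a6 of basement membranes at 40.6 and 83.2 CPM, and Col6a1 of microfibrils at 109.9 and 211 CPM. Col4a5, the most abundant chain by CPM, differed little at 1456 and 1522 CPM. The lower chains were Col20a1, with 19.7 and 13.0 CPM, and Col8a2, with 9.56 and 7.27 CPM.

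Small proteoglycans and elastic fibre genes showed the same lean, with 11 of 19 higher, 2 lower and a median of 0.42. Tenascin C (Tnc), a glycoprotein of remodelled matrix, was at 26.0 and 43.3 CPM and fibrillin 1 (Fbn1) at 22.7 and 36.5 CPM. Fibronectin (Fn1) ran against this lean, at 388.5 and 302 CPM, and decorin (Dcn) stood at 2846 and 2710 CPM. Laminin chains were higher: Lamc1 at 628 and 917 CPM, Lamb1 at 33.6 and 56.3 CPM, and Lamb3 at 8.34 and 14.46 CPM. In the list of laminins and basement membrane genes 8 of 17 were higher and 3 lower, the last being agrin (Agrn, 371 and 265 CPM), nephronectin (Npnt, 51.1 and 38.5 CPM) and Fbln1 (327 and 259 CPM). Among cell receptors for matrix, the integrin chains Itga9, Itga6, Itga1 and Itga3 were 2.31, 2.0, 1.44 and 1.36 times the wild-type level, whereas Itgb1 was at 1110 and 1092 CPM. The list of integrin chains had 5 of 15 higher and 1 lower, but 8 lay below 0 and the median was -0.02.

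Matrix proteases and their inhibitors showed no common direction, with 5 of 23 higher and 2 lower. Of the list 12 lay above 0 and 11 below, and the median was 0.01. The 2 lower genes were Plat, a plasminogen activator gene, at 297 and 222 CPM, and the gelatinase gene Mmp2, at 15.5 and 8.82 CPM.

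Secreted airway and alveolar products gave another 3 of the 15 largest gains. The gel-forming mucin gene Muc5b was at 10.2 and 77.1 CPM, a ratio of 7.57 (6.68 to 8.61). Muc5ac, which lies beside it on chromosome 7, was at 1.03 and 5.34 CPM, a ratio of 5.17 (3.44 to 8.03). These were the only members in a list of 27 mucin and airway secretory genes, of which 13 had no count in either unscratched library. Surfactant protein B (Sftpb), which spreads the surfactant film, was at 25.4 and 107 CPM, a ratio of 4.19 (3.86 to 4.56). Surfactant protein C (Sftpc) was at 5.68 and 20.6 CPM, a ratio of 3.62 (3.03 to 4.35). The protease gene Ctsh (51.3 and 94.1 CPM) and Etv5 (39.1 and 56.6 CPM) were also higher. Other type 2 genes were not: the lipid transporter gene Abca3 was at 175 and 185 CPM, the lung transcription factor gene Nkx2-1 at 163 and 137 CPM, and Foxa1 at 82.3 and 55.4 CPM. In the list of surfactant and type 2 genes 5 of 12 were higher and 1 lower. Type 1 and caveolae genes lay close to the background, with 3 of 24 higher and 2 lower.

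Protease genes named for mast cells were higher, while several other genes of those cells had no count. Mcpt1 was at 2.32 and 32.8 CPM, a ratio of 14.1 (10.9 to 18.5), Mcpt2 at 0.922 and 4.87 CPM, and Cma1 at 0.184 and 2.87 CPM. The growth factor receptor gene Kit was at 2.69 and 8.65 CPM, the receptor gene Mrgprb2 at 12.7 and 14.2 CPM, and the transcription factor gene Gata2 at 3.36 and 3.58 CPM. The mast cell genes Fcer1a, Ms4a2 and Cpa3 had no count in either unscratched library, and the summed level of the 15 markers was 22.7 and 68.1 CPM. Mcpt1, Mcpt2 and Cma1 lie together on chromosome 14, and close paralogs make their counts uncertain.

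The remaining genes of the 15 with the largest gains were of mixed roles. The membrane repair gene Dysf was at 0.480 and 5.20 CPM, a ratio of 10.9 (6.16 to 20.8), and the arsenic methyltransferase gene As3mt at 1.07 and 6.35 CPM. Nmnat2, an enzyme of NAD synthesis, was at 4.65 and 22.9 CPM and Plcb1, a phospholipase C, at 4.91 and 21.1 CPM. The transcription factor gene Gata5 (1.14 and 5.64 CPM), the membrane protein gene Sez6l (1.254 and 5.24 CPM) and the growth factor binding protein gene Igfbp4 (2.36 and 10.8 CPM) had ratios of 4.93, 4.18 and 4.57. The phosphatase gene Dusp4, which turns off ERK, was at 3.62 and 13.8 CPM, a ratio of 3.80 (3.04 to 4.79). All 15 had both knockout-labelled libraries above both wild-type ones.

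Some receptors were counted almost only in the knockout-labelled cells. Notch1 had 0 counts in wild-type and 79 in knockout-labelled unscratched cells, and 0 and 113 after the scratch. Against a floor of 3 counts in the wild-type library it was at least 24.1-fold higher. Pdgfrb, a platelet-derived growth factor receptor, had 0 and 67 counts, at least 20.5-fold higher by the same floor, and 1 and 135 counts after the scratch. Adam19, a membrane-bound protease gene, had 0 and 40 counts (at least 12.2-fold higher), with 3 and 39 counts after the scratch. The lower ends of the counting intervals of their ratios were 19.2, 16.2 and 9.48. The secreted Wnt antagonist gene Sfrp1 had 1 and 40 counts. Of 20 Notch pathway genes, 5 were higher and none lower, among them the ligand gene Jag1 (20.7 and 29.0 CPM) and the coactivator gene Maml3 (8.93 and 14.1 CPM), and the list median was -0.02.

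The largest losses were smaller than the largest gains. Kif26a, a kinesin family gene, was at 8.52 and 2.50 CPM, 3.41-fold lower (2.61 to 4.49). Mn1, a transcriptional coregulator gene, was at 31.5 and 10.4 CPM, 3.02-fold lower (2.65 to 3.45). The cytoskeletal gene Septin3 was at 17.8 and 6.18 CPM, 2.88-fold lower (2.43 to 3.44). Cytip, which binds cytohesins, was at 21.0 and 8.14 CPM, and Dact2, a modulator of Wnt signalling, at 30.7 and 12.8 CPM. The death receptor gene Tnfrsf25 was at 21.4 and 8.99 CPM and the retinol dehydrogenase gene Rdh10 at 20.7 and 9.16 CPM. Both were less separated in the scratched pair, at 14.2 and 8.0 CPM and at 22.5 and 12.7 CPM.

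Several of the lower genes belong to secreted signals and to genes better known from nerve cells. Igfbp3 was at 16.8 and 8.04 CPM, a ratio of 0.478 (0.407 to 0.560), while Igfbp4 of the same family was higher. The guidance cue gene Sema3e was at 63.3 and 30.6 CPM, a ratio of 0.483 (0.445 to 0.523), and Sema3d at 307 and 163 CPM. Semaphorins and their receptors split: 5 of 26 were higher, among them Sema4a (3.06 and 8.69 CPM) and the receptor genes Plxna1, Plxna2 and Plxna4, and 6 were lower. Of 8 neuronal marker genes measured, 4 were lower and none higher: the microtubule protein gene Map2 (292 and 176 CPM), Mapt, Sv2a and the synaptic vesicle gene Sv2c (17.3 and 8.31 CPM). In the scratched pair 2 of the 8 were lower and 1 higher. The list median was -0.41 without a scratch and -0.002 after it, where Mapt was at 1.51 and 1.54 CPM. The potassium channel gene Kcnt2 was at 6.09 and 2.91 CPM. Zrsr1, Gnas and Rpl23a were also among the 15 lowest, but paralogs, pseudogenes or overlapping transcripts make the counts of these 3 genes uncertain. Gnas and Rpl23a were higher in the knockout-labelled library of the scratched pair.

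**Figure D3:**
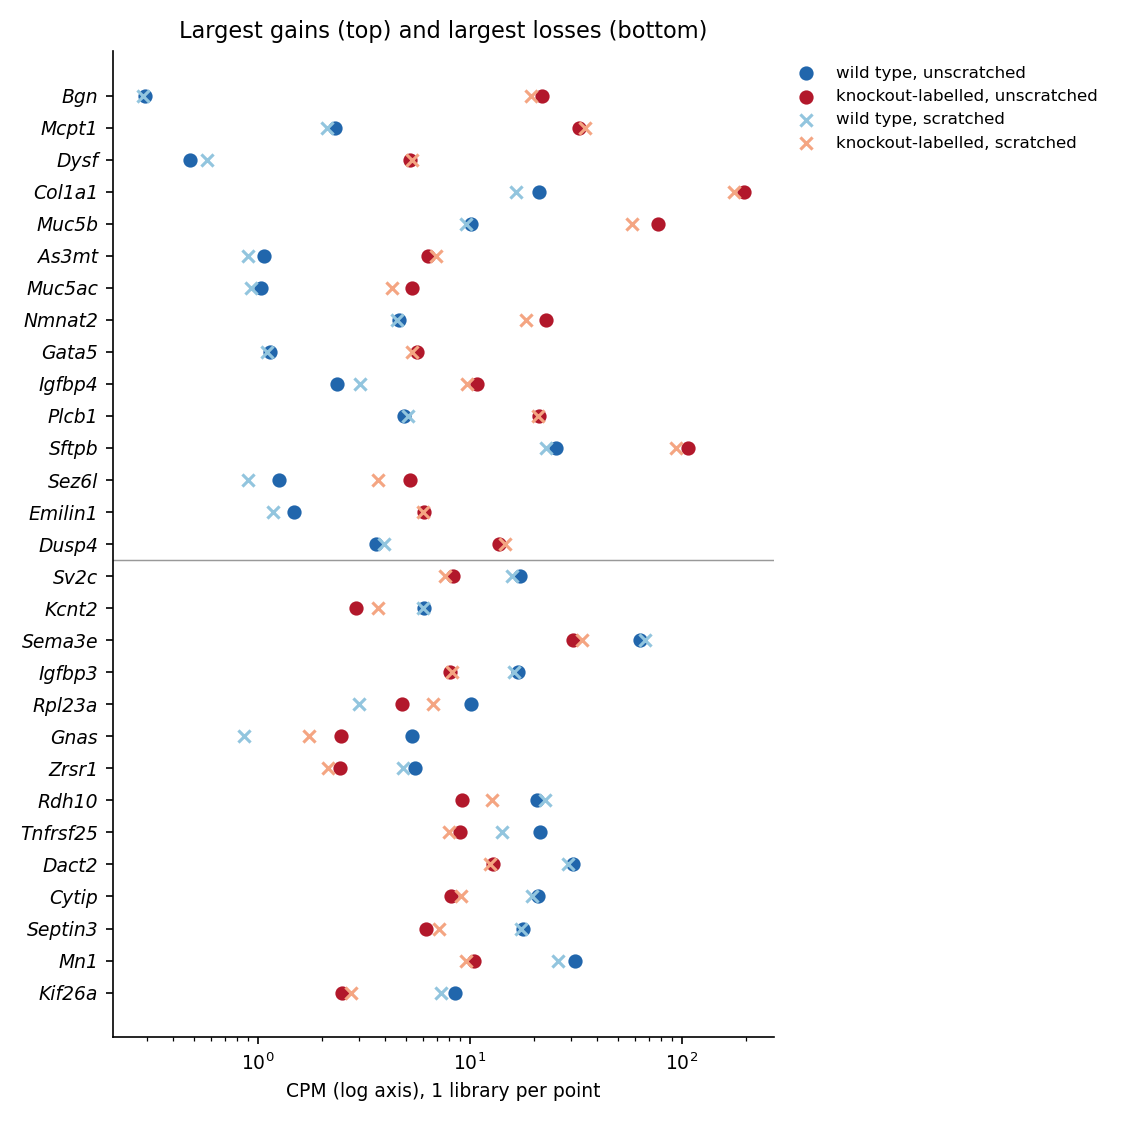
CPM (log axis) of the 15 protein-coding genes with the largest gains (top) and 14 of the 15 with the largest losses (bottom) among those with at least 5 CPM in the higher library, with 1 point per library. Bgn spans 0.295 to 21.97 CPM without a scratch, the scratched points lie near the unscratched ones of the same genotype for most genes, and Gnas and Rpl23a are the genes whose order turns between the pairs.

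Some called genes were neighbours on a chromosome, a pattern noted after the values were seen. Of the 245 called genes outside the RNA classes that could be placed, 27 lay in 12 clusters whose gene starts were at most 500 kb apart and whose members were called in the same direction, 10 clusters higher and 2 lower. The cluster on chromosome 14 held Cbln3, Cma1, Mcpt1 and Mcpt2. The acute-phase genes Orm1, Orm3 and Orm2 on chromosome 4 were 2.28, 3.66 and 3.05 times the wild-type level, with counts that their similar sequences make uncertain. Other higher neighbours were Muc5ac with Muc5b, Col1a1 with the homeobox gene Dlx3, Igfbp4 with Tns4, Sftpc with Gfra2, and Trp63, a transcription factor of basal cells, with Tprg. The lower clusters were Tnfrsf25 with Gpr153 and Ttyh1 with Gm15927. How often neighbours would be called together otherwise was not tested.

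Many of the genes switched on within minutes of a growth signal were lower in the unscratched knockout-labelled cells. Of 28 immediate early genes measured, 12 were lower and none higher, with a median log2 difference of -0.24. In the scratched pair 1 was lower and 1 higher, with a median of -0.03. Jun, a subunit of the AP-1 transcription factor, was at 200.3 and 116 CPM without a scratch, a ratio of 0.577 (0.553 to 0.603), and at 157 and 120.1 CPM after it. Its partner Fosb was at 16.8 and 9.67 CPM, a ratio of 0.576 (0.495 to 0.669), and at 7.64 and 6.83 CPM after the scratch. Junb, another AP-1 gene, was at 177 and 118 CPM, and after the scratch at 132 and 140.1 CPM. In each case the wild-type unscratched library was the highest of the 4.

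Other early genes followed. Ier2 had a ratio of 0.651 without a scratch and 0.939 after it, and Fos ratios of 0.682 and 0.872. The zinc finger gene Egr1 stood at 0.725 times the wild-type level without a scratch (0.702 to 0.748) and at 0.965 times after it. The ERK phosphatase gene Dusp1 was at 0.697 and 0.873, and Zfp36, whose product speeds the decay of cytokine mRNAs, at 0.782 and 0.841. Klf4, the most abundant of the list by CPM, was at 802 and 687 CPM, and at 730 CPM in both scratched libraries. Nr4a1, Btg2 and Atf3 had ratios of 1.01, 1.06 and 1.11, so the list was not uniform. The wild-type unscratched library also had more ribosomal and mitochondrial RNA than its knockout-labelled partner, and the part of that in the early genes was not tested. The difference between the pairs was not tested either.

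The promoters of early genes are known for sites of the serum response factor and of CREB. RefSeq promoters (build GRCm38.p6, 250 bases before to 50 after the start) were matched for 23 early genes with 32 start sites, some of which overlap. The CArG box of the serum response factor was found in 6 of the 32 (18.8%) and in 1.63% of all 32851 promoters. Of these 6 start sites 4 belong to Egr2, so the share rests on 3 genes of 23 (Egr2, Zfp36 and Srf). Of these genes Srf was not called, with a ratio of 1.01. The cAMP response element TGACGTCA, to which CREB binds, was found in 3 (9.38%) and in 1.79% of all. Its carriers were Dusp1, called lower, and Btg2 and Maff, not called (ratios of 1.06 and 0.846). In the window searched, the promoters of Jun, Fosb, Junb, Fos and Jund, all called lower, held neither element in its exact form. Sites outside the window and variant forms of the elements were not searched, so sites of these factors may be missed. Egr1 and Ier2 were not among the 23 genes matched. Both strands were searched, and neither motif contains the other. The 250 bases before the start are shown for 2 carriers that were called lower, with the element in capitals. These are the CArG box of Zfp36 (chr7:28379229-28379478, minus strand) and the cAMP response element of Dusp1 (chr17:26508473-26508722, minus strand).
Zfp36: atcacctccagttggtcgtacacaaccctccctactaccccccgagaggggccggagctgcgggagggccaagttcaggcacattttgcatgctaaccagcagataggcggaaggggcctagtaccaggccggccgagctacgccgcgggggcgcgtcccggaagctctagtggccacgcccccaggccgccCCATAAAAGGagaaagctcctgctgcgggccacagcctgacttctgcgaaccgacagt
Dusp1: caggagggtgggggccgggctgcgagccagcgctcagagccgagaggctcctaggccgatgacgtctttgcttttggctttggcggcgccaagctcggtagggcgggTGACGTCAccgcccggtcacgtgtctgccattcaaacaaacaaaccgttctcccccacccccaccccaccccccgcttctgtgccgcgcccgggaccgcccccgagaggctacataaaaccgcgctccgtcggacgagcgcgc

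Feedback genes of the same growth pathway did not go with the early genes. Of 14 ERK feedback genes 5 were higher and none lower, and beside Dusp4 these included the transcription factor genes Etv4 (14.3 and 22.2 CPM) and Etv5 (39.1 and 56.6 CPM) and the phosphatase gene Dusp7 (6.68 and 9.60 CPM). Spred1, an inhibitor of the pathway, was at 171 and 142 CPM. Receptors and ligands of the EGFR family were near the background, with 2 of 13 higher and 1 lower, and Erbb2 was at 229 and 220.2 CPM. Partners of Lingo1 and of the Nogo receptor also differed little, with 2 of 10 higher and 1 lower; the higher ones were the endocytic receptor genes Lrp1 (269 and 376 CPM) and Sort1 (247 and 310.0 CPM).

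Cytosolic ribosomal protein genes were mostly called higher, and other genes of protein synthesis were mostly not called. Of 82 cytosolic ribosomal protein genes, 48 were higher and 2 lower, and 79 lay above 0; the median was 0.35, and 0.23 in the scratched pair, where 13 were called higher. Their summed level was 21873 CPM in wild-type and 28163 CPM in knockout-labelled cells. Rps24 was at 475 and 756 CPM, Rpl3 at 344 and 542 CPM, and Rplp0 at 1160 and 1611 CPM, whereas Rpl23a and Rpl35a were lower. Many ribosomal protein genes have processed pseudogenes, so single counts are uncertain. The elongation factor gene Eef1a1 had the largest gain of all members in CPM, from 2906 to 4291. In all, 10 of 58 translation factor genes were higher and none lower, and 7 of 45 ribosome biogenesis genes were higher, led by the nucleolar protein gene Npm1 (388 and 570.0 CPM). Mitochondrial ribosomal proteins had 5 of 77 higher, 1 lower and a median of 0.10, and none of 20 cytosolic aminoacyl-tRNA synthetases was called (median 0.14). Of 17 housekeeping genes, which share members with these lists, 6 were higher and none lower, with a median of 0.14.

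Mitotic genes were modestly higher while replication genes were modestly lower. Of 59 genes of G2 phase and mitosis, 18 were higher and none lower, 57 lay above 0, and the median was 0.22 (0.10 in the scratched pair). The centromere genes Cenpf and Cenpe were at 194 and 299 CPM and at 140 and 207 CPM. The mitotic kinase gene Aurka was at 70.7 and 102 CPM, and Top2a, the most abundant of the list by CPM, at 1369 and 1575 CPM. Of 54 S phase genes 1 was higher and 6 lower, 41 lay below 0, and the median was -0.14 (-0.15 after the scratch). Among these were the licensing factor gene Cdt1 (254 and 195 CPM) and the cyclin gene Ccne2 (54.8 and 42.1 CPM), whereas Ccne1 was at 8.19 and 12.3 CPM. Replication-dependent histone transcripts, which carry no poly(A) tail, were mixed. By 2-fold, 6 of 13 were lower and none higher, all 6 with the order turned in the scratched pair, but the summed share of the class was close, at 0.0451% and 0.0417% of counts.

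Genes of sugar breakdown and hypoxia were called higher more often than lower, although most of both lists were not called. Of 27 glycolytic genes 12 were higher and 1 lower, with medians of 0.18 and 0.23 in the unscratched and scratched pairs. Hexokinase 2 (Hk2), which traps glucose in the cell, was at 2.77 and 10.04 CPM, a ratio of 3.63, and at 6.67 and 14.03 CPM after the scratch. The phosphofructokinase gene Pfkl was at 40.6 and 72.6 CPM, Aldoa at 218 and 358 CPM, Pgk1 at 46.8 and 69.1 CPM, and the glucose transporter gene Slc2a1 at 24.1 and 37.3 CPM. Pfkfb2 was called lower, at 14.02 and 10.7 CPM, and 5 of the 27 lay below 0. Of 26 hypoxia targets, a list that shares genes with the glycolytic one, 10 were higher and none lower, and 8 lay below 0. The higher ones included Egln3, an oxygen sensor of the pathway (4.46 and 8.01 CPM), Pdk1, which keeps pyruvate out of mitochondria (62.1 and 92.4 CPM), and the mitophagy gene Bnip3 (23.2 and 32.3 CPM).

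Promoters of these genes were read for ACGTG or GCGTG, the core of the site bound by hypoxia-inducible factors, on both strands; ACGTG is also part of the E-box CACGTG. It was found in 32 of 43 promoters of glycolytic genes (74.4%) and 22 of 29 of hypoxia targets (75.9%), against 43.8% of all promoters. These are start sites of 26 and 22 genes, and some of them overlap. Pfkfb2, called lower, held the core in each of its promoters, and Tpi1, called higher, did not hold it. The core was also in 21 of the 32 early gene promoters (65.6%), a list that leaned lower. The 250 bases before the start of 3 of the higher genes are shown, with the core in capitals on either strand: Hk2 (chr6:82774455-82774704, minus strand), Pgk1 (chrX:106186850-106187099, plus strand) and Egln3 (chr12:54203875-54204124, minus strand).
Hk2: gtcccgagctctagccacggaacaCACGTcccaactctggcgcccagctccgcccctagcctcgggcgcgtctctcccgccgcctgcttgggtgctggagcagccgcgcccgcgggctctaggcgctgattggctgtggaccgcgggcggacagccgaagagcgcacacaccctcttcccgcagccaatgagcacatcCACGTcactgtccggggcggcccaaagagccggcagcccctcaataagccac
Pgk1: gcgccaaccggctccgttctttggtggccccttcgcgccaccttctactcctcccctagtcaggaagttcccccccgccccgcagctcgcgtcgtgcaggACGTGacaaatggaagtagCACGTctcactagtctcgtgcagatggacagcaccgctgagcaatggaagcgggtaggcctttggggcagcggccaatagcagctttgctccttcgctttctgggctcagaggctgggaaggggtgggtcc
Egln3: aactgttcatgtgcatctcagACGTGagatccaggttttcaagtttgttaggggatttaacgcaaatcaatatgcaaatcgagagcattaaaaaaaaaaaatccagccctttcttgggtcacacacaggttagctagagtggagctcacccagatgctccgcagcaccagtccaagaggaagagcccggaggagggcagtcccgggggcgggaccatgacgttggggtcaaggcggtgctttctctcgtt

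Lipid and protein-folding genes gave smaller groups of gains. Of 27 fatty acid synthesis genes 10 were higher and 2 lower, with a median of 0.22. The desaturase genes Scd2 and Scd1 were at 2748 and 3701 CPM and at 548 and 803 CPM, and the elongase gene Elovl6 at 66.7 and 112 CPM. Cholesterol synthesis genes had none higher and 3 of 24 lower, although their median was 0.17; the lower ones included Srebf2 (856 and 667 CPM) and Idi1. Of 26 unfolded protein response genes 7 were higher and 1 lower, with Xbp1 at 16.6 and 31.1 CPM and the chaperone gene Hspa5 at 477 and 634 CPM. NRF2 targets had 8 of 28 higher and none lower, led by Prdx6 at 58.6 and 101 CPM. Of 77 nuclear respiratory chain genes 2 were higher and none lower, although 63 lay above 0, with a median of 0.11. All 7 mitochondrially encoded mRNAs measured were lower, such as mt-Co1 at 3420 and 2432 CPM, but the median of -0.51 was 0.04 in the scratched pair.

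Junction genes and the ephrin and Eph receptor genes leaned lower. Of 32 tight and adherens junction genes 2 were higher and 6 lower, with medians of -0.11 and -0.10 in the unscratched and scratched pairs. The catenin gene Ctnna2 was at 69.3 and 34.5 CPM, Nectin3 at 249 and 174 CPM, and Nectin1 at 18.5 and 12.6 CPM, while beta-catenin (Ctnnb1) was at 1213 and 1202 CPM. Of 15 ephrin and Eph receptor genes 1 was higher and 3 lower, and 13 lay below 0. Of 7 keratin genes measured 3 were higher and none lower: Krt13, Krt14 of basal cells (43.0 and 68.7 CPM) and Krt8 (247 and 328 CPM). Genes of mesenchymal transition had 8 of 21 higher and 2 lower, among them Axl (126 and 203 CPM), S100a4 (2.62 and 8.01 CPM) and vimentin (Vim, 718 and 944 CPM); Prrx1 was at 42.6 and 23.3 CPM.

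Lists of other signalling pathways were divided or near the background. TGF-beta genes had 7 of 30 higher, with Inhba at 29.99 and 57.7 CPM, and 5 lower, with the inhibitory gene Smad6 at 47.2 and 29.9 CPM. Wnt genes had 5 of 39 higher and 6 lower, YAP targets 6 of 28 higher and 3 lower, and p53 targets 3 of 27 in each direction. Of 38 interferon-stimulated genes 1 was higher and 5 lower, with medians of -0.07 in the unscratched and -0.21 in the scratched pair. NF-kB and cytokine genes had 9 of 29 higher and 3 lower, with a median of -0.00.

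**Figure D4:**
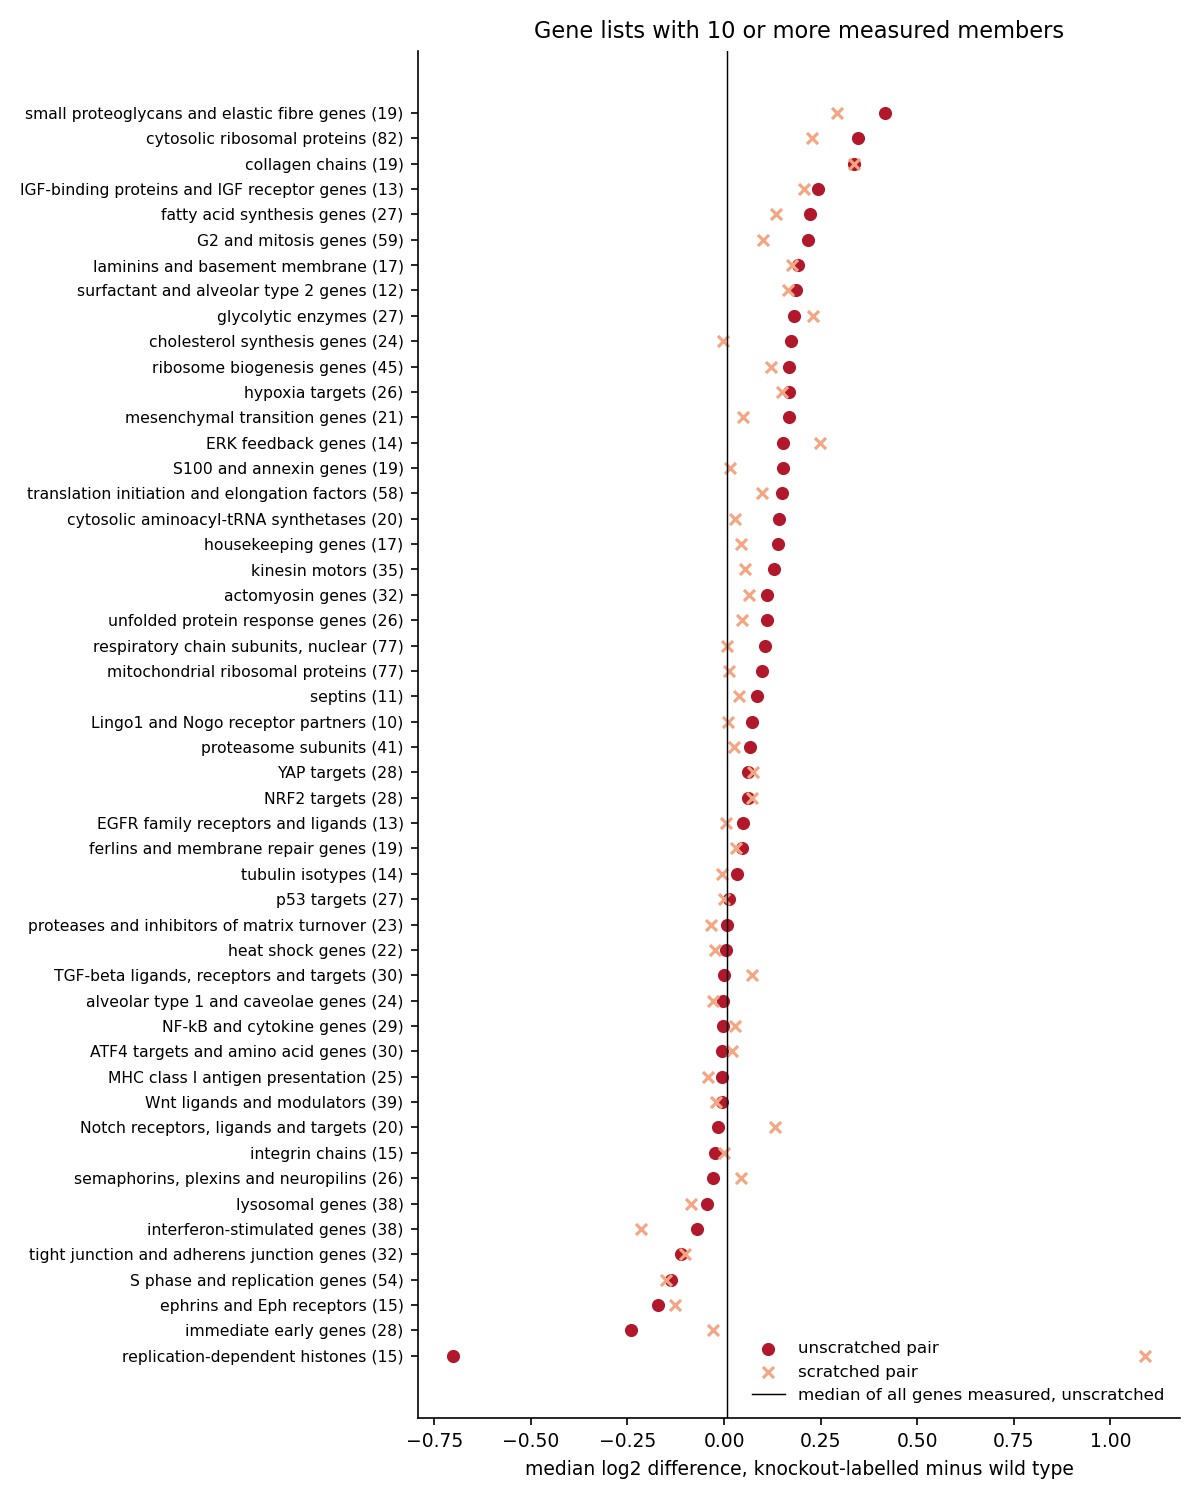
Median log2 difference, knockout-labelled minus wild type, of each gene list with at least 10 measured genes (number in brackets), for the unscratched pair (circles) and the scratched pair (crosses); the line marks the median of all genes, 0.01. Collagens, small proteoglycans and ribosomal proteins lie to the right in both pairs, immediate early genes lie at -0.24 without a scratch and at -0.03 after it, and the histone list, which here also holds the linker histone genes H1f0 and H1f10, goes from -0.70 without a scratch (-0.04 when 5 CPM is required) to 1.09 after it.

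Genes of chromosome 4 were slightly lower in every window examined. The median log2 difference of its 791 members was -0.17, a ratio of 0.892, and 624 of them (78.9%) lay below 0. In the scratched pair the median was -0.16, a ratio of 0.894. At the 25% minimum, 17.7% of its members were lower and 3.92% higher, against 6.82% and 9.30% on the other chromosomes. The chromosome held 6.46% of the members and 15.2% of those called lower at that minimum. Jun and Klf4 of the early gene list are among its genes.

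The difference was spread over genes and positions. In windows of 10 Mb with at least 20 members, all 13 on chromosome 4 had a median below 0 in both pairs, from -0.23 to -0.04 without a scratch. Of these, 12 were at or below -0.1, as were 5 of the 197 windows elsewhere. The median was -0.26 for members under 5 CPM, -0.16 from 5 to 50 CPM and -0.15 from 50 CPM upward. Abundant genes with small differences were Clic4, a chloride channel family gene, at 955 and 832 CPM, the peroxiredoxin gene Prdx1 at 930 and 835 CPM, and the receptor phosphatase gene Ptprf at 589 and 471 CPM. Exceptions on the chromosome were Hspg2, the perlecan gene, at 921 and 963 CPM, and the lipid exporter gene Abca1, at 3.10 and 11.3 CPM, a ratio of 3.65 (2.87 to 4.70).

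The other nuclear chromosomes ranked (1 to 19 and X) had medians nearer to 0, while the 10 members of the mitochondrial genome had a median of -0.53 (0.14 in the scratched pair). Chromosome 16 had a median of -0.05 (-0.09 in the scratched pair), and it holds the amyloid precursor gene App, which was at 3541 and 2633 CPM. Chromosomes 2 and 14 had medians of 0.08 and 0.07, with 0.07 and 0.06 in the scratched pair. On chromosome 2, 16 of 17 windows were above 0, and 5 of the 11 windows in the genome at or above 0.1 lay there. The chromosome-wide values were not tested.

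**Figure D5:**
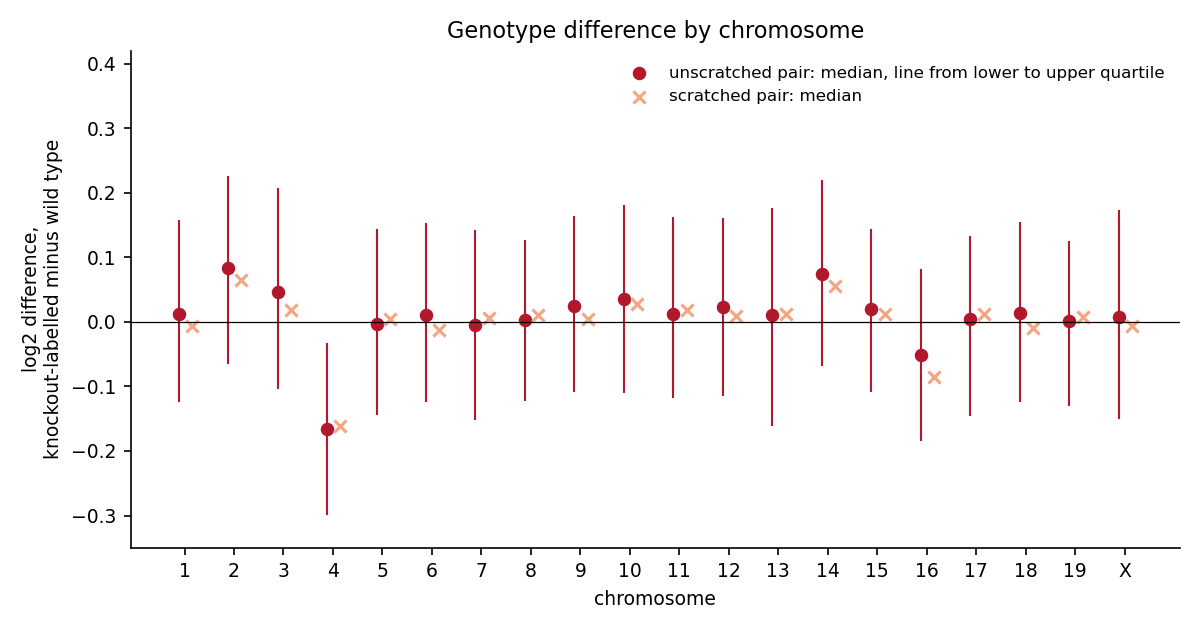
Median log2 difference, knockout-labelled minus wild type, of the genes of each chromosome: circles for the unscratched pair, with lines from the lower to the upper quartile, and crosses for the scratched pair. Of the chromosomes drawn (1 to 19 and X), chromosome 4 is the lowest in both pairs, at -0.17 and -0.16, and the upper end of its line is at -0.03.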

How the data were processed

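RNA from 4 MLE-12 cultures was sequenced from stranded mRNA libraries, 1 library per condition, per the labels' protocols. The authors deposited raw read counts and, for 14844 genes, RPKM values. Per the submitters' processing notes, the build was mm10 and the tools included STAR 2.7.9a, HTSeq 0.11.3, Trimmomatic 0.39 and edgeR 3.32.1. The role of each tool, the release of the gene models and the handling of strand were not stated there, and overlapping or antisense genes are therefore uncertain.

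The deposited counts were scaled with TMM factors from all 4 libraries (edgeR 4.0.16, R 4.3.3) to CPM. Ratios, exact 95% Clopper-Pearson intervals and log2 differences (prior count 2) were computed with Python 3.11.15, numpy 2.4.6, pandas 2.3.3 and scipy 1.17.1, and figures with matplotlib 3.10.9. A floor of 3 counts was 0.111 CPM in wild-type and 0.101 CPM in knockout-labelled unscratched cells. The reads carry no molecular identifiers, so intervals and floors cover counting error only. The scripts were tested on simulated data. Positions and gene types came from GENCODE (mm10), which held 12204 of the 12245 genes, and names from the deposited RPKM table or a reference list that matched 45143 identifiers. No p-value was computed, since no condition has a replicate.

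The genes, the 58 gene lists and the rules were chosen with earlier results of these data known. The text names Lingo1, the 15 protein-coding genes with the largest gain and the 15 with the largest loss among those called at 2-fold with at least 5 CPM, the 10 largest gains and losses in CPM, and up to 4 genes per direction and the most abundant gene of a list. Genes outside that rule (those without wild-type counts or over 10-fold higher, markers, neighbours, Srf, further early genes, Krt13, Mapt and abundant genes of chromosome 4) were chosen after their values were seen. Alternatives were total-count scaling, DESeq2 1.42.0 size factors, other filters and prior counts, the authors' RPKM values with a pseudocount of 0.1, protein-coding genes only and removal of GC and length trends. Leaving out the RNA classes and subtracting each chromosome's median were chosen after seeing the data. Some genes that the naming rule selects are not reported here.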

Additional observations from a re-analysis of the deposited data

Results flagged for a closer look

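These 8 genes, each with at least 5 CPM in the higher unscratched library, were called at 2-fold in opposite directions without and after the scratch. At all levels 20 genes were so called, and those under 5 CPM, histone genes and Nme2 among them, are not listed. The difference between the pairs was not tested. The knockout-labelled to wild-type ratio was 0.0829 without a scratch and 6.99 after it for Gm24601, 0.179 and 10.6 for Gm23935, and 0.228 and 5.10 for Rny3. It was 0.321 and 5.92 for the ribosomal RNA gene CT010467.1, 0.368 and 3.83 for the ribosomal RNA gene n-R5-8s1, 0.346 and 5.17 for Rpph1, the RNA of RNase P, and 0.399 and 3.70 for Rn7sk, the small nuclear RNA that holds back transcription elongation. The ribosomal protein gene Rpl23a had ratios of 0.471 and 2.23. Of these 8, all but Rpl23a are short or structural RNAs without a poly(A) tail.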

How the results depend on the processing

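Of 924 values recomputed under the alternatives, 891 stayed within the tolerance, 31 moved and 2 reversed. The number of genes called at 2-fold moved with the filter on low levels. With any gene of at least 1 read admitted it was 603 (336 higher, 267 lower), and with at least 5 CPM required it was 85 (58 higher, 27 lower). From the authors' RPKM values, 65 genes were called lower. Counts at the 25% minimum stayed within 1.5 times under each alternative run on them, which did not include protein-coding genes only. The median of the fibroblast markers reversed from 0.80 to -0.24 when 5 CPM was required, which leaves out low members of a list of 7. The median of mitochondrially encoded mRNAs became 0.0217 after the chromosome medians were subtracted, since these genes make up most of that chromosome. The keratin list median was -0.11 with at least 5 CPM. Total-count scaling and DESeq2 size factors moved the median of all genes by -0.01 and -0.00. No paired analysis was possible because the unscratched groups share fewer than 2 replicate numbers. With 1 library per condition no library could be left out of a pair. Below 5 CPM, where most 2-fold calls lie, intervals are wide, and variation between cultures was not measured.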

Other observations

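Gene types differed in how often they were called. Of 11541 protein-coding genes 1.95% were called at 2-fold, against 7.27% of 110 antisense genes and 5.16% of 155 processed pseudogenes. Antisense genes had a median log2 difference of -0.13 in the unscratched and -0.04 in the scratched pair. With the genes split by level into 3 sets of nearly equal size, 5.68% of the lowest set and 0.196% of the highest were called. The part of level in the shares of the gene types was not tested.

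Among the most abundant transcripts, the chloride channel gene Ano1 was at 2355 and 1946 CPM in wild-type and knockout-labelled unscratched cells. The sphingomyelinase gene Smpd3 was at 1056 and 732 CPM, and Tmem151a at 871 and 560.5 CPM. Each was lower in the scratched pair too, with ratios of 0.850, 0.767 and 0.798.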
